A study of Mus musculus with 4 samples.

Results

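Glutathione S-transferases join the tripeptide glutathione to reactive, mostly lipid-soluble compounds, which makes these compounds soluble and ready for export from the cell. The soluble enzymes are grouped by sequence into classes named alpha, mu, theta, pi and omega, and a separate microsomal family sits in membranes. Alpha-class enzymes also reduce lipid hydroperoxides, and the alpha enzyme Gsta4 is known for its activity on 4-hydroxynonenal, an aldehyde formed when lipids are oxidised. The 10 members followed here were Gsta2, Gsta3 and Gsta4 of the alpha class, Gstm1 and Gstm2 of the mu class, Gstt1 and Gstt2 of the theta class, Gstp1 of the pi class, Gsto1 of the omega class and the microsomal Mgst1. They were taken as every non-control probe whose RefSeq accession belongs to one of these symbols, which gave 16 probes for the 10 genes, of 28330 probes and 21367 genes named on the array. All 16 probes were well above background on all 4 arrays, so none was lost to the filter on dim probes.

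The values are from aortic vascular smooth muscle cells of C57BL/6J mice in culture. In the L2AKO LDL group, cells lacking LAMP-2A were kept for 24 h in DMEM with 5% lipoprotein-deficient serum (LPDS), LDL at 150 µg/ml of cholesterol, and bovine lipoprotein lipase at 0.1 U/ml. In the L2AKO control group the same cells had the medium with 5% LPDS and no LDL, and the WT LDL and WT control groups were wild-type cells treated in these same ways. LAMP-2A is the lysosomal membrane protein through which chaperone-mediated autophagy takes up single proteins, and the sources used here do not say whether control cells also received the lipase. Cells came from 5 aortas, were used between passages 12 and 16, and were pooled from a triplicate onto 1 array per group.

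With 1 array per group there is no spread between cultures, so no test was made and no p-value or standard error is given. A level is the log2 processed signal of a probe minus the 75th percentile of its array, and a difference is one array minus another on that log2 scale. A probe's level can be set against its own level on another array, not against another probe. A gene with several probes is represented by the one with the highest mean, and it was counted as higher or lower where the difference reached 1.5-fold (0.585 log2 units). The only error that could be measured was technical: probes printed repeatedly on one array gave an SD of 0.08 for the difference of 2 spots. The 75th percentile was 433.8 on the L2AKO LDL array, 389.4 on L2AKO control, 370.6 on WT LDL and 318.8 on WT control, with 47.2% to 52.0% of probes well above background and no saturated spot. By the slide codes in the scanner files, 3 arrays shared a slide and the L2AKO LDL array was on another, so slide and group cannot be told apart in any comparison that uses it.

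The targeted gene Lamp2 had 2 probes. One read 6.09 in L2AKO LDL, 6.33 in L2AKO control, 6.38 in WT LDL and 6.29 in WT control, and so differed by no more than 0.29 between the lines. The other read 2.41 and 2.30 in the L2AKO LDL and L2AKO control arrays, against 3.74 and 3.68 in the WT LDL and WT control arrays, a difference of -1.32 with LDL and -1.38 without. The sources used here do not say which of the probes lies in the deleted sequence. Of 12 smooth muscle markers, 7 were well above background on each array, while Myh11 and Myocd, the smooth muscle myosin heavy chain and the cofactor that drives the contractile programme, were not above background on any.

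**Figure D1:**
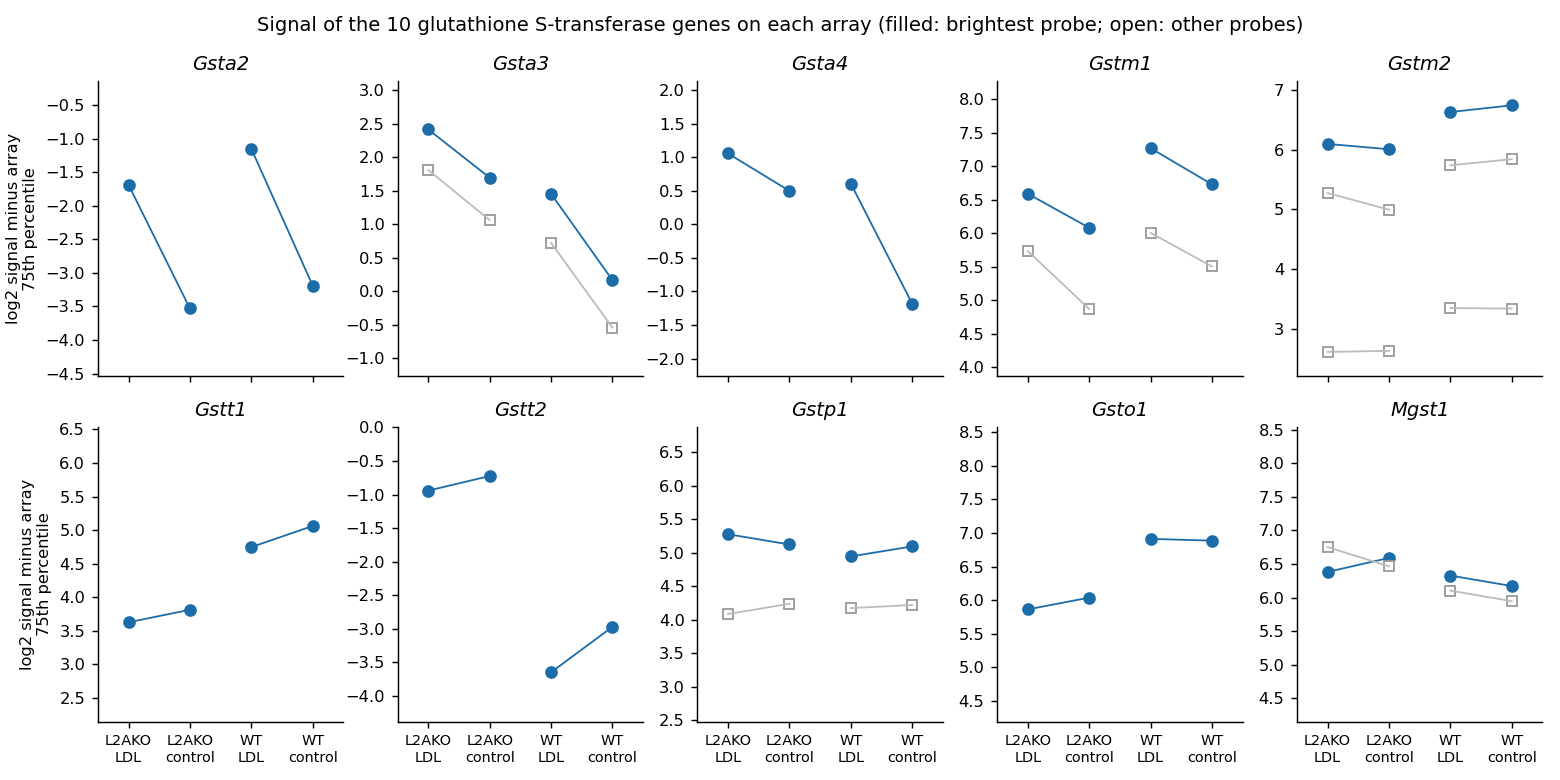
Log2 signal minus the array's 75th percentile (y axis) for each of the 10 genes on the L2AKO LDL, L2AKO control, WT LDL and WT control arrays (x axis); filled circles are the probe that represents the gene, open squares its other probes, and lines join the arrays of a line. Gsta2, Gsta3 and Gsta4 lie higher with LDL in both lines, and Gstt1 and Gstt2 lie apart between the lines in opposite directions.

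Gsta2, Gsta3 and Gsta4, the alpha-class members, were the 3 of 10 genes that rose by 1.5-fold or more with LDL in wild-type cells, by 2.04, 1.29 and 1.79 log2 units. In the same comparison 1.25% of 12977 measured genes rose and 2.46% fell by that much, and 1 of the 10 genes, Gstt2, fell (-0.68). The median of the 10 differences was 0.09, beside -0.05 over all measured genes. Gstm1, at 0.54 here, passed the threshold under 4 of the 8 other settings (0.60 to 0.71), the authors' deposited values among them, so a mu gene then joined the alpha genes. In L2AKO cells 2 of the 10 genes, Gsta2 (1.84) and Gsta3 (0.72), rose and none fell, against 3.34% and 4.55% of 13008 genes across the slides. Gsta4 (0.56) and Gstm1 (0.51) lay just under the threshold there and passed it, at 0.67 and 0.61, when arrays were scaled to their medians. The median of the 10 there was 0.12, beside -0.08 over all measured genes. The members were chosen with results of these arrays known, so these counts describe the arrays and are no evidence about the class.

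Gsta2 encodes an alpha-class subunit, and it had 1 probe printed once. Its level was -1.69 in L2AKO LDL and -3.53 in L2AKO control, against -1.15 in WT LDL and -3.19 in WT control. Both LDL arrays were high and both control arrays low, and the gap between the lower LDL array and the higher control array was 1.50. With LDL the fold difference was 3.59 in L2AKO cells and 4.11 in WT cells. The log2 difference was smaller after normexp and quantile normalization, at 0.95 in L2AKO cells and 1.24 in WT cells, and in the authors' deposited values, at 1.15 and 1.46. In the unscaled processed signal the probe read 134.7 ± 13.7 and 33.7 ± 5.5 in L2AKO LDL and L2AKO control, and 167.0 ± 17.2 and 34.9 ± 5.2 in WT LDL and WT control, where the error is the scanner software's own for that single spot. The lowest log2 level called well above background was -4.33 on the L2AKO control array and -4.23 on the WT control array, so both control values of Gsta2 lie above that limit.

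Gsta2 lies on chromosome 9 in a cluster with Gsta4, Gsta1 and the genes Gm3776 and Gm10639, which the gene table gives only as protein-coding genes with no further name. Of all 12491 genes measured on all 4 arrays, Gm10639 and Gm3776 had the patterns nearest to that of Gsta2, at root mean square distances of 0.18 and 0.26 log2 units between patterns centred on their own means. The next was Nrxn2, a neurexin, at 0.47. Gm10639 read -0.54 in L2AKO LDL and -1.99 in L2AKO control, against 0.14 in WT LDL and -2.13 in WT control, so that its LDL difference was 1.45 in L2AKO cells and 2.27 in WT cells. Gm3776 read -0.68 in L2AKO LDL and -1.82 in L2AKO control, against 0.38 in WT LDL and -1.81 in WT control, LDL differences of 1.15 and 2.20. On both genes the LDL arrays were higher than both control arrays, as on Gsta2. A second probe for Gm10639 was above background on the L2AKO control array alone and gives no LDL difference. Whether one transcript of this cluster gives signal on another's probe was not tested, since probe sequences were not used here, and Gsta1 had no probe matched by its accession.

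The start regions of these genes are shown because their levels rose together with LDL. They are RefSeq promoter windows of GRCm38.p6, from 250 bases before to 50 bases after the annotated start, written 5′ to 3′ on the gene's own strand. Capitals mark matches to either of 2 motifs on either strand: TGACNNNGC, the core of the antioxidant response element bound by NRF2, and GCGTG, the core of the xenobiotic response element bound by the aryl hydrocarbon receptor.
Gsta2 promoter, chr9:78347096-78347395, minus strand: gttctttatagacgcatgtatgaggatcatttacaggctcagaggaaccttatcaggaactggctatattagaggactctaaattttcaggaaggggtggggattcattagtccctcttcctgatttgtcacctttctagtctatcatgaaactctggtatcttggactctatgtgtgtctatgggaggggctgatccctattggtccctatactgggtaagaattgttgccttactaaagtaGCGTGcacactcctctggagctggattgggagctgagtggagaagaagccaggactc
Gm10639 promoter, chr9:78289678-78289977, plus strand: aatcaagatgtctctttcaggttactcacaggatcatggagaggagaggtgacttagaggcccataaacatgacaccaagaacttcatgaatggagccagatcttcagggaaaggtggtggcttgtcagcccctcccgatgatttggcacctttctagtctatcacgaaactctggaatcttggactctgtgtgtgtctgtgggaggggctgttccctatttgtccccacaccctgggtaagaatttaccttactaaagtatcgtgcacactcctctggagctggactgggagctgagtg
Gm3776 promoter, chr9:78256879-78257178, plus strand: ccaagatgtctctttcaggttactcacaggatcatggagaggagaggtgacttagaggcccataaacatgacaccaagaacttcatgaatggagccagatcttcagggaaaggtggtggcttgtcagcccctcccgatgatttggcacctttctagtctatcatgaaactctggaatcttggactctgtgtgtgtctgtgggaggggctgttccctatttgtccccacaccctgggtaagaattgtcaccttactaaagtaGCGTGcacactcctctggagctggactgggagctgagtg
Gsta3 promoter, chr1:21240335-21240634, plus strand: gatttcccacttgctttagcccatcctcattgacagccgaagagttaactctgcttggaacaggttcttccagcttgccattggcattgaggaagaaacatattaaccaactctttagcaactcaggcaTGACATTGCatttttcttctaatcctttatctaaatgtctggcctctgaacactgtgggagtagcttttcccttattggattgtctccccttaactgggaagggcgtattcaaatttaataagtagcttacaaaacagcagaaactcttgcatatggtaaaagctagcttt

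Over the aligned windows, Gm10639 and Gm3776 were identical at 97.4% of alignment columns, Gsta2 and Gm10639 at 67.7%, and Gsta2 and Gm3776 at 68.7%. Gsta3, which lies on chromosome 1 apart from this cluster, matched Gsta2 at 51.4% of columns. Counted from the annotated start, the GCGTG core stood at base -7 in Gsta2 and at base 12 in Gm3776, and the Gm10639 window has no match to either motif. The TGACNNNGC core stood at base -121 in Gsta3 as TGACATTGC. Among 32851 mouse promoter windows of this length, 12.4% held TGACNNNGC and 32.4% held GCGTG on either strand. Of the 10 genes 8 had a window (Gsta4 and Gstt2 had none in the table), and in these TGACNNNGC was found in Gsta3 and Mgst1 and GCGTG in Gsta2, Gstm1 and Gstp1. The AP-1 motif TGANTCA, found in 7.81% of all windows, was found in Gstp1, and the sterol element TCACNCCAC, found in 1.24%, in none of the 8. The matches to TGANTCA and GCGTG in Gstp1 do not overlap, and a match describes the letters of the window without showing that a factor binds there. A motif farther than 250 bases before the start would not be found, so a gene without a match may hold one outside its window.

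Gsta3, an alpha enzyme known in mice for conjugating activated aflatoxin, had 2 probes that gave nearly the same result. The brighter read 2.41 in L2AKO LDL and 1.69 in L2AKO control, against 1.45 in WT LDL and 0.17 in WT control. The other read 1.81 in L2AKO LDL and 1.06 in L2AKO control, against 0.72 in WT LDL and -0.54 in WT control. On both probes WT control was the lowest array and L2AKO LDL the highest, and the LDL differences were 0.72 and 0.75 in L2AKO cells and 1.29 and 1.27 in WT cells. The response difference, the L2AKO difference minus the WT difference, was -0.57 and -0.52 on these probes, just short of 1.5-fold.

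Gsta4, the enzyme active on 4-hydroxynonenal, was printed at 10 spots on each array, which gives it a technical error. Its level was 1.06 ± 0.05 in L2AKO LDL, 0.50 ± 0.06 in L2AKO control, 0.61 ± 0.06 in WT LDL and -1.18 ± 0.09 in WT control (SD over 10 spots of 1 array). The spots ranged from 0.99 to 1.14 in L2AKO LDL, from 0.39 to 0.64 in L2AKO control, from 0.52 to 0.68 in WT LDL and from -1.33 to -1.05 in WT control. The WT control array lay apart below the other 3, and the spots of L2AKO control and WT LDL overlapped. With LDL the difference was 0.56 in L2AKO cells, just under 1.5-fold, and 1.79 in WT cells. The response difference of -1.23 made Gsta4 the 1 gene of 10 called in that comparison, where 3.99% of 12491 genes were lower by that fold and 4.77% higher.

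**Figure D2:**
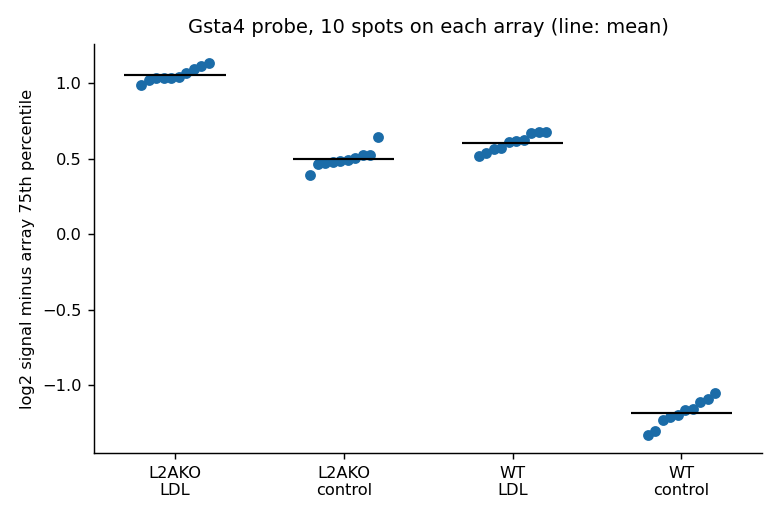
Log2 signal minus the array's 75th percentile (y axis) at each of the 10 spots of the Gsta4 probe on the L2AKO LDL, L2AKO control, WT LDL and WT control arrays (x axis); points are spots in order of level and the line is their mean. The spots of WT control lie between -1.33 and -1.05, below all spots of the other arrays, while those of L2AKO control and WT LDL overlap.

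Gsta3 and Gsta4 were also each other's near neighbours in pattern. Gsta3 was the gene closest to Gsta4, at a distance of 0.21, followed by Mest at 0.28 and Pheta2 at 0.29. The genes closest to Gsta3 were Ubxn4 and Gm3604, both at 0.20, with Gsta4 next at 0.21. These distances rest on 4 arrays, and the WT control array, low on both genes, enters both the LDL comparison in WT cells and the comparison of the lines without LDL.

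Gstm1, the mu-class enzyme that conjugates epoxides and other electrophiles, ran the same way with LDL in both lines on both of its probes but stayed under 1.5-fold on the brighter one. That probe read 6.59 in L2AKO LDL and 6.08 in L2AKO control, against 7.27 in WT LDL and 6.73 in WT control, differences of 0.51 and 0.54. The other read 5.73 in L2AKO LDL and 4.87 in L2AKO control, against 6.01 in WT LDL and 5.50 in WT control, differences of 0.86 and 0.50. Each LDL array was thus above the control array of its line, and L2AKO control was the lowest of the 4 on both probes. The pattern nearest to Gstm1 was that of Gstm4, its neighbour in the mu cluster on chromosome 3, at a distance of 0.05, with Hsf4 and Bcl2l11 both at 0.06. All of these are below the technical SD of 0.08, so which gene lies nearest is not resolved. A second, dimmer probe for Gstm4 ran the other way between the lines, at 0.59 in L2AKO LDL and 0.49 in L2AKO control, against -0.22 in WT LDL and 0.00 in WT control.

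The other 6 genes, apart from Gstt2 in WT cells, differed by less than 1.5-fold with LDL. The log2 differences for Gstm2, Gstt1, Gstp1, Gsto1 and Mgst1 lay between -0.21 and 0.15 in L2AKO cells and between -0.31 and 0.16 in WT cells. Gstt2, a theta-class enzyme, differed by -0.22 in L2AKO cells and -0.68 in WT cells, where it was dimmest. Its WT call ended after normexp and quantile normalization (-0.22) and in the authors' deposited values (-0.29). Its processed signal in WT cells was 29.5 ± 5.3 in WT LDL and 40.6 ± 5.9 in WT control before scaling, with the software's error for 1 spot. Mgst1, a membrane enzyme of the endoplasmic reticulum and the outer mitochondrial membrane, had probes that differed in sign in L2AKO cells, at -0.21 and 0.29, and were both at 0.16 in WT cells. Gstp1, which has the near-identical neighbour Gstp2, likewise gave 0.15 and -0.15 on its probes in L2AKO cells.

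**Figure D3:**
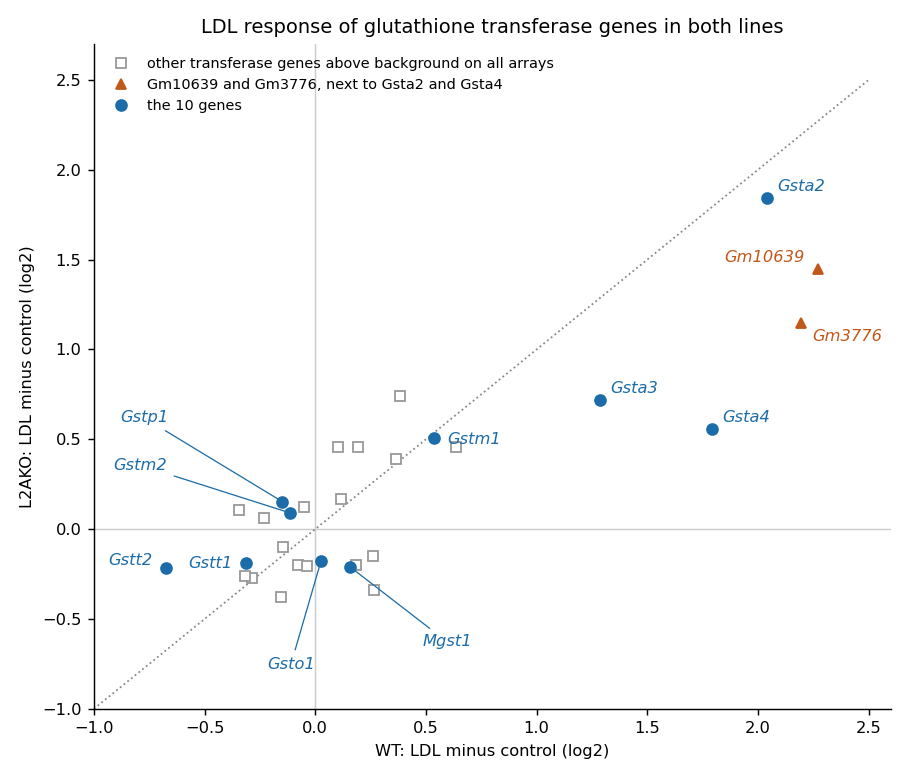
LDL minus control in log2 units in L2AKO cells (y axis, arrays on different slides) against the same in WT cells (x axis); circles are the 10 genes, triangles Gm10639 and Gm3776, squares the other transferase genes above background on all arrays, and the dotted line marks equal responses. Gsta2, Gm10639 and Gm3776 lie highest on both axes, and Gsta4 lies farthest below the line of equal responses.

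The other transferase genes were taken from a list of 25, of which 23 were on the array. The list is broad and takes in Clic1, Clic4, Eef1g, Gdap1 and Alox5ap, relatives not named as glutathione transferases. With LDL 1 of 18 measured rose in L2AKO cells and 1 of 19 in WT cells, and none fell. They were Gstm3 in L2AKO cells (0.74) and Gstm4 in WT cells (0.64), both of the mu class. The second Gstm4 probe, also above background on all arrays, read -0.22 for that comparison in WT cells. Over all measured genes 3.34% rose and 4.55% fell in L2AKO cells, and 1.25% rose and 2.46% fell in WT cells. The list medians were -0.02 in L2AKO cells and 0.10 in WT cells.

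The rest of the glutathione pathway was read from lists of genes for its supply, use and export. The LDL shares over all genes were 3.34% higher and 4.55% lower in L2AKO cells, and 1.25% and 2.46% in WT cells. Of the genes for glutathione synthesis, recycling and breakdown, 1 of 22 was higher and 2 lower with LDL in L2AKO cells, and none of 21 changed by 1.5-fold in WT cells (list medians -0.09 and -0.04). The higher one was Gclm, the modifier subunit of glutamate-cysteine ligase, at 0.84 in L2AKO cells and 0.50 in WT cells. The lower ones were Ggct (-0.77) and Chac1 (-0.68), both of which act on gamma-glutamyl peptides in glutathione breakdown. Gclc, the catalytic subunit of the ligase, differed by 0.49 in L2AKO cells and 0.56 in WT cells, and Gsr, glutathione reductase, by 0.06 and -0.09.

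NRF2 is the transcription factor that binds the antioxidant response element, and several glutathione S-transferase genes are among its known targets. Of the genes for NRF2, its partners and its core targets, 2 of 27 rose and 1 fell with LDL in L2AKO cells. Beside this, 3.34% of all genes rose and 4.55% fell. In WT cells 1 of 27 rose and none fell, beside 1.25% and 2.46% of all genes. The list medians were 0.09 in L2AKO cells and 0.04 in WT cells. Nqo1, a quinone reductase, read 1.85 in L2AKO LDL and 0.79 in L2AKO control, against 1.55 in WT LDL and 0.83 in WT control. It rose by 1.06 in L2AKO cells and by 0.71 in WT cells. Nfe2l2, which encodes NRF2, fell by 0.70 in L2AKO cells and differed by 0.08 in WT cells, and Keap1, its inhibitor, differed by -0.22 and -0.39. Hmox1, heme oxygenase 1, differed by 0.54 in L2AKO cells and 0.47 in WT cells, under 1.5-fold in both.

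Glutathione peroxidases and peroxiredoxin 6, which use glutathione against peroxides, gave no gene past 1.5-fold with LDL among 6 measured in L2AKO cells and 7 in WT cells (list medians -0.11 and -0.10). Of 6 measured exporters of glutathione conjugates and organic anions, none changed by 1.5-fold in L2AKO cells and 2 did in WT cells, Abcc4 at 0.72 and Abcc3 at -0.80 (list medians -0.07 and 0.12). Abcc1, the main exporter of glutathione conjugates, differed by 0.38 in L2AKO cells and 0.41 in WT cells. Both lists stand beside 3.34% of all genes higher and 4.55% lower in L2AKO cells, and 1.25% and 2.46% in WT cells.

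**Figure D4:**
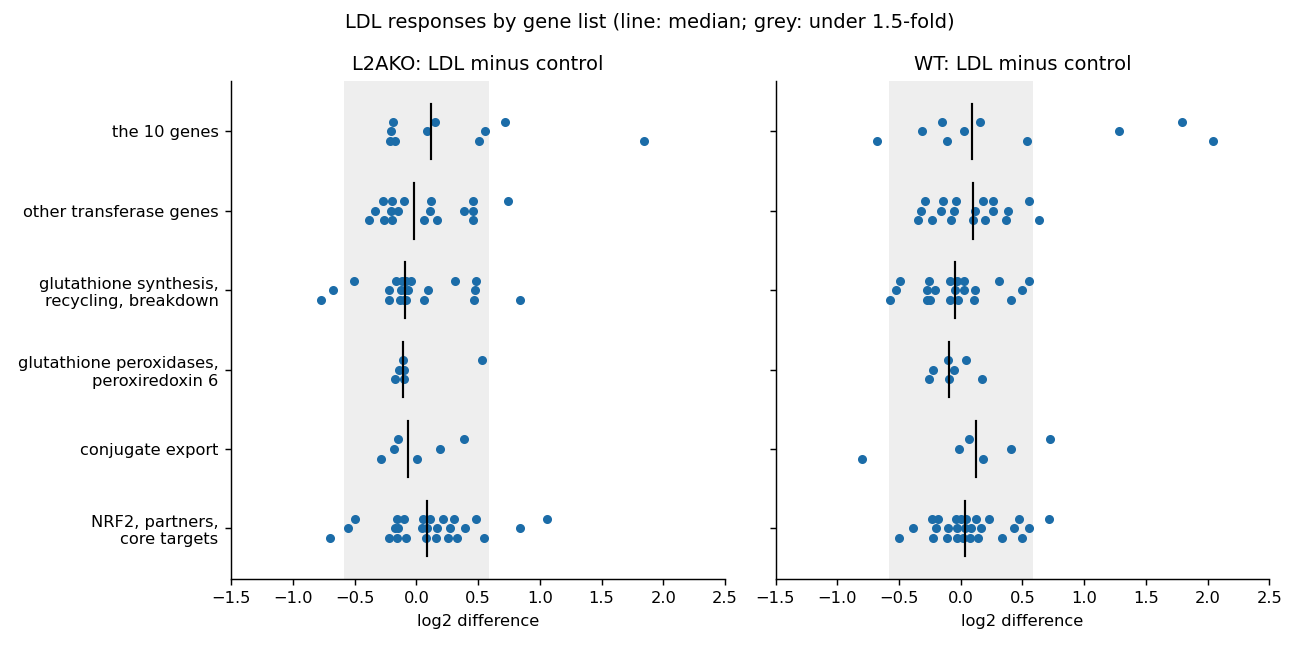
LDL minus control in log2 units (x axis) for each measured gene of the lists on the y axis, with L2AKO cells in the left panel and WT cells in the right; each point is a gene, the vertical line is the list's median and the grey band holds differences under 1.5-fold. Gsta2 is the point farthest to the right in both panels, and all list medians lie between -0.11 and 0.12.

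Between the lines without LDL, on 1 slide, 3 of the 10 genes were higher in L2AKO cells by 1.5-fold or more and 4 lower. Gstt2 (2.25), Gsta4 (1.68) and Gsta3 (1.53) were higher, and Gstt1 (-1.25), Gsto1 (-0.85), Gstm2 (-0.74) and Gstm1 (-0.65) were lower. Over all 12593 measured genes 15.2% were higher and 16.6% lower by that fold, and the median of the 10 was -0.16 beside -0.01 over all genes. With LDL, across slides, 2 of the 10 were higher (Gstt2 at 2.71, Gsta3 at 0.96) and 3 lower (Gstt1 at -1.12, Gsto1 at -1.05, Gstm1 at -0.68), against 16.9% and 20.5% of 12934 genes. The median of the 10 was then -0.24, beside -0.05 over all genes.

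The theta genes Gstt1 and Gstt2 stand in the same cluster on chromosome 10 and lay in opposite directions between the lines. Gstt1, known for acting on small halogenated compounds, read 3.63 in L2AKO LDL and 3.81 in L2AKO control, against 4.75 in WT LDL and 5.06 in WT control. Both L2AKO arrays were below both WT arrays, with a gap of 0.93 between the lines. Gstt2 read -0.94 in L2AKO LDL and -0.72 in L2AKO control, against -3.65 in WT LDL and -2.97 in WT control, so that both L2AKO arrays were above both WT arrays with a gap of 2.03. The difference between the lines, 2.71 with LDL and 2.25 without, was 1.40 and 1.36 after normexp and quantile normalization, and 1.72 and 1.62 in the authors' deposited values. Its processed signal was 225.8 ± 22.8 and 235.8 ± 24.1 in L2AKO LDL and L2AKO control, and 29.5 ± 5.3 and 40.6 ± 5.9 in WT LDL and WT control. Gstt3, also of the cluster, differed by -0.43 without LDL and -0.14 with it, and the flanking genes Ddt and Mif by no more than 0.21 in size.

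The pattern of Gstt2 was nearest to those of Gas1, Fbln5 and Cpxm1, at distances of 0.06, 0.12 and 0.13. Fbln5 encodes an elastic fibre protein of the vessel wall, and it read 7.27 in L2AKO LDL and 7.23 in L2AKO control, against 4.57 in WT LDL and 5.03 in WT control. The genes nearest to Gstt1 were Shisa4, Tmem254a and Pxylp1, at 0.02 to 0.03. Below the technical SD of 0.08, where the distances of the Gstt1 genes and of Gas1 lie, an order is not resolved.

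Gsto1, an omega enzyme with thioltransferase and dehydroascorbate reductase activity, read 5.86 in L2AKO LDL and 6.04 in L2AKO control, against 6.91 in WT LDL and 6.89 in WT control. The lines were 0.85 apart at the nearest, while the WT arrays differed by 0.03, less than the technical SD of 0.08. Its neighbour Gsto2 lay the other way, at 1.19 in L2AKO LDL and 1.53 in L2AKO control, against -1.03 in WT LDL and -1.29 in WT control. The omega pair thus differed in direction between the lines, as the theta pair did. The genes nearest to Gsto1 in pattern were Ndufab1, Rtl8a and Plekha7, all at 0.01. These distances are below the technical SD of 0.08, so which genes lie nearest is not resolved.

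In the mu cluster on chromosome 3 the order is Gstm5, Gstm7, Gstm6, Gstm3, Gstm2, Gstm1 and Gstm4. Gstm2, a mu-class subunit, read 6.10 in L2AKO LDL and 6.01 in L2AKO control, against 6.63 in WT LDL and 6.74 in WT control. Its 3 probes were lower in L2AKO cells, by -0.85 to -0.71 without LDL and by -0.74 to -0.46 with LDL. For Gstm1 the 2 probes were at -0.65 and -0.63 without LDL and at -0.68 and -0.27 with LDL.

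Gstm6 was lower in L2AKO cells by -1.65 without LDL and -1.38 with LDL. Gstm7 read -4.36 in L2AKO LDL against -1.14 in WT LDL, a difference of -3.21 close to the detection limit. Without LDL it was not well above background in L2AKO control cells, where its measured level was -4.65 against -1.70 in WT control. With the lowest level well above background on that array (-4.33) in place of the dim value, the difference would be 6.18-fold. That level is not a ceiling for dim probes, since Gstp3 was not well above background there at -3.93. The size of the Gstm7 difference without LDL therefore stays uncertain. Gstm5 differed by -0.15 without LDL and -0.13 with LDL, so the genes of the cluster did not all differ alike.

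**Figure D5:**
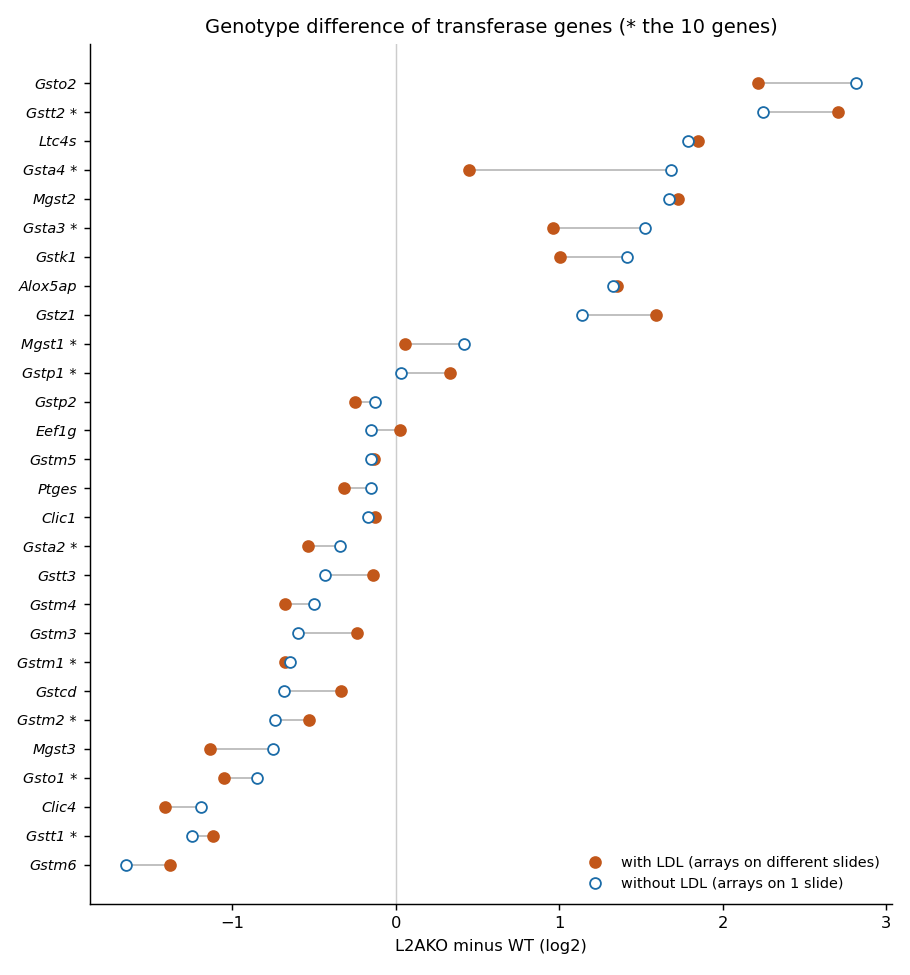
L2AKO minus WT in log2 units (x axis) for the transferase genes above background on all 4 arrays (y axis, asterisks mark the 10 genes); filled circles are with LDL, across slides, and open circles without LDL, on 1 slide. Gsto2 and Gstt2 lie highest. Gstm6, Gstt1 and Clic4, a listed relative not named as a transferase, lie among the lowest. Each gene is shown by its brightest probe, and a dimmer Clic4 probe differed by -0.53 without LDL and -0.41 with it. Gsta4 has the longest line between its values, 1.68 without LDL and 0.45 with it.

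Of the other transferase genes, 6 of 18 were higher and 5 lower in L2AKO cells without LDL, and 6 of 20 were higher and 5 lower with LDL (list medians -0.15 and -0.19). Over all genes the shares were 15.2% and 16.6% without LDL and 16.9% and 20.5% with LDL. Beside Gsto2 (2.82 without LDL and 2.21 with it), the higher ones included Ltc4s (1.79 and 1.85), which makes leukotriene C4 from glutathione, and Mgst2 (1.67 and 1.73), a microsomal relative. Mgst1 itself differed by 0.42 and 0.52 on its probes without LDL and by 0.05 and 0.65 with LDL. Gstp1 differed by 0.03 and 0.02 on its probes without LDL, and by 0.33 and -0.09 with LDL.

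Gsta2, which had the largest LDL difference of the 10, was not called between the lines, at -0.34 without LDL and -0.54 with LDL. Gm10639 and Gm3776 differed by 0.14 and -0.01 without LDL and by -0.68 and -1.06 with LDL. Around the transferase clusters and single genes, the nearest measured genes on either side came to 14. Of these, 2 were higher and 2 lower in L2AKO cells without LDL, and 3 were higher and 4 lower with LDL, near the shares over all genes. The 2 lower without LDL were Csf1 (-1.30) and Ampd2 (-0.71), the nearest measured genes on either side of the mu cluster. With LDL they differed by -1.71 and -0.70. Whether they and the mu genes share a cause was not tested.

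The calls among supply genes lay near the shares over all genes given above. Of the synthesis, recycling and breakdown list, 3 of 21 were higher and 5 lower in L2AKO cells without LDL, and 3 and 6 of 21 with LDL (list medians -0.09 and 0.03). Gclc fell to 4.08 in L2AKO LDL and 3.60 in L2AKO control, against 5.44 in WT LDL and 4.89 in WT control, differences of -1.36 and -1.29. Cbs, cystathionine beta-synthase, which feeds homocysteine sulfur into cysteine, was lower by -2.22 with LDL and -2.40 without. Among NRF2 genes and core targets none of 27 was higher in L2AKO cells, beside 16.9% of all genes with LDL and 15.2% without. Of the 27, 5 were lower with LDL and 4 without, beside 20.5% and 16.6% of all genes (list medians -0.13 and -0.14). Aldh3a1, an aldehyde dehydrogenase, was lower by -1.35 with LDL and -1.30 without, while Nqo1 differed by 0.31 and -0.04.

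In L2AKO cells the smooth muscle, macrophage, adventitial fibroblast, and epithelial and mesothelial lists each held both higher and lower markers. The adipocyte and endothelial lists, with few measured markers, held none lower. Over all genes 16.9% were higher and 20.5% lower with LDL, and 15.2% and 16.6% without. A list's summed signal, relative to the array's 75th percentile, follows its brightest probes, so single markers are given beside it.

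Of the smooth muscle markers, 3 of 7 measured were higher and 3 lower in L2AKO cells with LDL, and 2 of 6 were higher and 3 lower without (list medians 0.33 and -0.15). Tagln and Cnn1, contractile proteins, were higher by 1.46 and 1.04 with LDL and by 1.27 and 1.11 without, while Acta2, smooth muscle actin, was lower by -0.66 and -0.75. The sum over the 12 markers was 153 in L2AKO LDL and 160 in L2AKO control, against 189 in WT LDL and 213 in WT control, the direction of Acta2. Of the macrophage markers, 3 of 7 were higher and 2 lower with LDL, and 2 of 6 were higher and 2 lower without (list medians 0.50 and 0.18). Trem2 and Cd68 were higher by 2.49 and 1.79 with LDL and by 3.39 and 1.85 without, and Lgals3 was lower by -1.56 and -1.47. The sum over these 12 markers, in the direction of Lgals3, was 123 in L2AKO LDL and 117 in L2AKO control, against 243 in WT LDL and 262 in WT control. Adgre1, Ptprc, Fcgr1, Mrc1 and Tyrobp were not above background on any array.

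Of the adventitial fibroblast markers, 3 of 9 were higher and 5 lower with LDL, and 5 of 11 were higher and 4 lower without (list medians -1.01 and -0.44). Serpinf1 and Pi16 were higher by 4.49 and 4.85 with LDL and by 4.28 and 4.14 without, and Dcn was lower by -1.97 and -1.69. The sum over these 12 markers was 243 in L2AKO LDL and 291 in L2AKO control, against 389 in WT LDL and 444 in WT control. Of the epithelial and mesothelial markers, 2 of 7 were higher and 4 lower with LDL, and 2 of 6 were higher and 4 lower without (list medians -1.27 and -1.76). Lrrn4 was higher by 4.31 and 3.40, and Msln, mesothelin, was lower by -2.15 and -2.31. The sum over these 10 markers was 22.6 in L2AKO LDL and 19.4 in L2AKO control, against 58.3 in WT LDL and 63.0 in WT control, with Krt5 not above background on any array.

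Both measured adipocyte markers, Fabp4 and Pparg, were higher in L2AKO cells, by 1.30 and 1.67 with LDL and by 1.87 and 1.86 without, while Adipoq, Plin1, Cidec and Lep were not above background on any array. The sum over the 6 was 17.6 in L2AKO LDL and 16.8 in L2AKO control, against 6.00 in WT LDL and 4.67 in WT control. The 9 endothelial markers summed to 6.14 in L2AKO LDL and 5.02 in L2AKO control, against 4.94 in WT LDL and 6.20 in WT control. Cdh5, Tek, Emcn, Cldn5 and Tie1 were not above background on any array. Of 3 measured, 2 were higher in L2AKO cells with LDL, Vwf (1.10) and Nos3 (0.85), and none without (list medians 0.85 and 0.13). For the response difference all 3, Kdr included, were called higher, beside 4.77% of all genes. The part of all these markers in the differences of the 10 genes was not tested, and in pooled RNA fewer cells of a type and less RNA per cell cannot be told apart.

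Scaling bears on the direction of small differences. Subtracting each array's median in place of its 75th percentile moved the median of all genes by 0.11 for LDL in L2AKO cells, by 0.20 for the lines with LDL and by 0.11 for the response difference. Of the genes called with LDL in L2AKO cells, 42.3% were higher, against 62.0% under median scaling, 60.1% when the percentile was taken only over probes above background on every array, 54.2% after normexp and quantile normalization and 53.9% in the authors' deposited values. Between the lines with LDL the share was 45.1%, against 61.9% under median scaling. For the response difference it was 54.5%, against 74.8% under median scaling, 65.9% after normexp and quantile normalization and 63.5% in the deposited values. For LDL in WT cells it was 33.7%, against 43.8% with the percentile over the brighter probes, 20.9% after normexp and quantile normalization and 23.6% in the deposited values. The alpha genes kept their sign in every comparison under each of these settings.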

How the data were processed

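Total RNA of cultured mouse aortic smooth muscle cells was hybridised to 4 single-colour Agilent arrays, 1 per group. Per the labels, 1 µg of total RNA was labelled and 0.6 µg hybridised. Each deposited scanner file gives linear intensities of 62976 spots, and the processed intensity used here had been background-subtracted in Feature Extraction 10.7.3.1, as its header says. A value table deposited by the authors, also of linear intensities, had column medians of 57.4 to 57.6. Per the submitters' processing notes it involved RMA and oligo, with versions not given, and its scaling between arrays stays unknown.

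Control spots and feature outliers were removed, log2 values were averaged over the spots of each of 55679 probes, and each array's 75th percentile was subtracted. RefSeq accessions named 28330 probes through a GRCm38.p6 gene table. The files name another build, so coordinates are printed for promoter windows of that table alone. A gene entered a comparison if its brightest probe was well above background on both arrays, or on all 4 for the response difference.

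The members, the 7 pathway lists and the 6 marker lists were chosen with earlier results of these data known. Named were all 10 members, Lamp2, up to 4 genes per list and comparison past 1.5-fold with the greatest difference, 8 fixed pathway genes, and the 3 genes nearest in pattern to each member ranging over at least 1 log2 unit. Second probes, Gm3776 details, flanking genes and cluster members were added after their values were seen. The 9 alternatives were 3 other scalings, normexp (offset 50) with quantile normalization, the deposited values, 2 filters on dim probes, the mean over a gene's probes and a 2-fold threshold. Calling was tested on simulated data. Promoter windows were aligned globally with biopython 1.88. Computation used Python 3.11.15, numpy 2.4.6, pandas 2.3.3, matplotlib 3.10.9, R 4.3.3 and limma 3.58.1.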

Additional observations from a re-analysis of the deposited data

How the results depend on the processing

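No paired analysis was possible because each group had 1 array. Of 90 recomputed member counts 82 stayed within 1.5 times the reported count and 8 did not. The 2 filters on dim probes could change no member count or difference, since every member probe was well above background on all 4 arrays. Values under these filters are among those that stayed. The members that fell with LDL in WT cells came to 0 in place of 1 after normexp and quantile normalization, in the authors' deposited values and at the 2-fold threshold. In L2AKO cells the members that rose with LDL came to 4 in place of 2 under median scaling and with the percentile taken over bright probes alone, and to 1 at the 2-fold threshold. At that threshold 1 member in place of 4 was lower in L2AKO cells without LDL, and 1 in place of 2 was higher with LDL. The fold threshold changes such counts by its construction. The cause of the other changes was not tested. No called value changed its sign. Of 400 recomputed member differences 138 moved by more than the SD of 0.08 between repeated spots. The sign turned, in values under 1.5-fold, for Gstm2 with LDL in WT cells (to 0.02 at most), Mgst1 with LDL in L2AKO cells (0.18 at most), Mgst1 between the lines with LDL (-0.04) and the Gstm1 response difference (up to 0.17). Gsta2 kept its LDL calls in both lines under all 8 settings at 1.5-fold, over 0.95 to 1.95 in L2AKO cells and 1.24 to 2.10 in WT cells. Of these settings, the 2 filters and the averaging of probes could not move Gsta2, which had 1 probe. Its calls were open to change only under the 3 other scalings, normexp with quantile normalization, and the deposited values. One array per group limits every value, and Gsta2 and Gstt2 are the members nearest to background.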

Other observations

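The aryl hydrocarbon receptor is a ligand-activated factor that also binds upstream of some glutathione S-transferase genes. Of 7 measured genes 1 was higher and 3 lower in L2AKO cells, both with and without LDL (list medians -0.14 and -0.06, beside -0.05 and -0.01 over all genes). Over all genes 16.9% were higher and 20.5% lower with LDL, and 15.2% and 16.6% without. The count of higher genes lay near these shares. The 3 of 7 lower lay above them, in a short list, and the difference was not tested. Tiparp, an ADP-ribosyltransferase that represses the receptor, read 2.25 in L2AKO LDL and 2.16 in L2AKO control, against 3.90 in WT LDL and 3.77 in WT control. Ahrr, the receptor's repressor, was lower by -1.05 with LDL and -1.47 without. Cyp1b1, a cytochrome P450, lay the other way, at 6.43 in L2AKO LDL and 6.50 in L2AKO control, against 5.37 in WT LDL and 5.25 in WT control. With LDL, 1 of the 7 rose in each line, beside 3.34% of all genes in L2AKO cells and 1.25% in WT cells. It was Nqo1 in both, which is also on the NRF2 list.

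Other enzymes that handle lipid aldehydes and quinones were read beside Gsta4. With LDL, 3 of 21 measured genes rose and none fell in L2AKO cells, beside 3.34% and 4.55% of all genes. In WT cells 1 of 22 rose and none fell, beside 1.25% and 2.46%. The list medians were 0.16 in L2AKO cells and 0.01 in WT cells, beside -0.08 and -0.05 over all genes. Beside Nqo1, the genes that rose in L2AKO cells were Adh1 (0.78), an alcohol dehydrogenase, and Ephx2 (0.64), soluble epoxide hydrolase. In L2AKO cells 2 genes were higher and 5 lower than in WT cells, both with LDL (of 21) and without (of 22), again near the shares over all genes. Ephx2 was higher by 1.19 with LDL and 1.10 without, and Aldh1a1, a retinal dehydrogenase, was lower by -0.89 with LDL and -1.29 without. Gpx7, an endoplasmic reticulum peroxidase of the glutathione peroxidase family, was higher by 1.93 with LDL and 1.57 without.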
